A study of Mus musculus with 2 samples.

Results

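Proliferating cells of the mouse aortic wall were studied by droplet-based single-cell RNA sequencing in 1 library from wild-type mice and 1 library from MGP knock-in mice, which carry a mutated matrix Gla protein. Cells were taken as proliferating when the unique molecular identifiers (UMIs, each standing for 1 captured transcript) of Mki67, Top2a, Prc1, Cenpf, Ube2c and Birc5 summed to at least 10. The members were thus chosen by their measured levels of these 6 genes, so those levels are a description and not a result. Barcodes entered only with 1000 UMIs or more, 500 genes or more and a mitochondrial share of up to 10%. The rule found 134 members among 3697 kept wild-type cells and 73 among 6419 kept knock-in cells, 207 of 10116 in all. Aortas came from mice of 1 month of age, both sexes were used for both genotypes, and the outer adventitia had been dissected away before enzymatic digestion. Dead cells, which take up DAPI, were sorted out. The labels do not say how many mice were combined in a library, nor do they describe the knock-in allele further. With 1 library for each genotype no comparison between them has a replicate check: animal, library and genotype cannot be told apart, and every interval below is a 95% interval that covers counting error only.

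The cell cycle doubles the DNA in S phase and divides it in mitosis. Genes for DNA replication are driven mainly by E2F transcription factors from late G1, while genes for the spindle and chromosome segregation are held back by the DREAM complex until G2, when B-MYB and FOXM1 activate them through CHR elements, often beside CCAAT boxes bound by NF-Y. In the wall of a growing artery, smooth muscle cells, fibroblasts, endothelial cells and resident macrophages can all divide, whereas in the adult artery they seldom do. Matrix Gla protein is a vitamin K-dependent extracellular protein that inhibits arterial calcification and binds bone morphogenetic proteins (BMPs).

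The promoters of 4 selection genes and 1 replication gene are shown first, as examples of the elements known from mitotic and replication genes. Each window runs from 250 bases before to 50 bases after the annotated start in RefSeq (build GRCm38.p6), 5′ to 3′ on the strand of the gene, and capitals mark TTTGAA (the CHR element), CCAAT, and the E2F-like motifs TTCCCGC and TTGGCGC, each on either strand. Top2a encodes the topoisomerase that untangles sister chromatids (chr11:99024140-99024439, minus strand). Ube2c encodes the ubiquitin-conjugating enzyme of the anaphase-promoting complex (chr2:164769679-164769978, plus strand), and in its window a CCAAT and its reverse complement overlap in CCAATTGG and were counted as 2 matches. Cenpf encodes a kinetochore protein (chr1:189688037-189688336, minus strand). Mki67 encodes the protein that coats mitotic chromosomes (chr7:135716330-135716629, minus strand). Mcm6, a subunit of the replicative helicase (chr1:128359656-128359955, minus strand), is shown as the replication gene for comparison. It was picked by UMI count among origin licensing and firing genes whose windows hold an E2F-like motif. Its E2F-like matches therefore follow from the choice and are not a result.
Top2a: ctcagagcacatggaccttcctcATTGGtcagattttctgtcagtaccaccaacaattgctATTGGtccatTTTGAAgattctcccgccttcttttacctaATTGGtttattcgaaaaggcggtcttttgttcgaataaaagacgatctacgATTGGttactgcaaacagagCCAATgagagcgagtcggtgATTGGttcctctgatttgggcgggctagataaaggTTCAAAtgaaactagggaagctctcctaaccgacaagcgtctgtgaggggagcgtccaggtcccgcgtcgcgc
Ube2c: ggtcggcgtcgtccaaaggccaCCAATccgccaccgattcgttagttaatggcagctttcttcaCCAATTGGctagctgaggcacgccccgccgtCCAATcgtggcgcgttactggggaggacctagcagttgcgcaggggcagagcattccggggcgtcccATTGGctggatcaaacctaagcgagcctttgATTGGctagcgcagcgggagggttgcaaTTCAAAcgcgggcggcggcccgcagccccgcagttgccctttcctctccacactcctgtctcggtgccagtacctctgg
Cenpf: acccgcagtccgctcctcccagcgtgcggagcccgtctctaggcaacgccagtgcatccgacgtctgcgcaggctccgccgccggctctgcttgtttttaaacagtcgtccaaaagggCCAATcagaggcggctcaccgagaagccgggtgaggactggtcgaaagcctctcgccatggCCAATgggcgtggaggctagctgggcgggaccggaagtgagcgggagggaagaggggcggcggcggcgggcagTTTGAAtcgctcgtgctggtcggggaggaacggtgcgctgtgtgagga
Mki67: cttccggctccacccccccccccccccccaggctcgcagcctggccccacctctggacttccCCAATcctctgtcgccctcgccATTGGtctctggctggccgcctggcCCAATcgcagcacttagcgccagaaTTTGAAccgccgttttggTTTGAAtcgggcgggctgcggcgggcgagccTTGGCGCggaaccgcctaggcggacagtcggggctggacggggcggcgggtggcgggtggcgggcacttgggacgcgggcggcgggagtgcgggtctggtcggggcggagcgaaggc
Mcm6: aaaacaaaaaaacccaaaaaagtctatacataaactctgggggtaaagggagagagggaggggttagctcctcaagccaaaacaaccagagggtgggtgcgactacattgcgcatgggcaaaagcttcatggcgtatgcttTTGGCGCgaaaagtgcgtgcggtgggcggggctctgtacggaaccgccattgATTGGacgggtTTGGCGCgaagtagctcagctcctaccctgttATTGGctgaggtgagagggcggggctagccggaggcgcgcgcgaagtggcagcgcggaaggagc
The Top2a window held 2 TTTGAA and 6 CCAAT matches, and the Ube2c window held 1 and 6. Cenpf had 1 TTTGAA and 2 CCAAT. Mki67 had 2 TTTGAA, 3 CCAAT and 1 E2F-like match. In the Mcm6 window 2 E2F-like and 2 CCAAT matches were found and TTTGAA was not. TTTGAA was present in 6 of the 7 windows of the selection genes, with Birc5, whose window held none of the 3 kinds of motif, as the exception, against 17.9% of all 32851 promoter windows. The lists of mitotic cyclins and kinases, of kinetochore and centromere, and of spindle, motors and cytokinesis were joined as mitosis lists. Of their 80 windows 55.0% held TTTGAA and 43.8% held at least 2 CCAAT, against 11.7% of all windows for the latter. An E2F-like motif was in 18.8%, against 6.81% of all. The anaphase-promoting complex list, not joined here, had TTTGAA in 3 of 19 windows (15.8%). Over the replication lists, 17.0% of 53 windows held TTTGAA, near the share of all promoters, while 49.1% held an E2F-like motif and 34.0% held at least 2 CCAAT. Pairs of CCAAT and E2F-like motifs were thus more frequent than among all promoters in both groups of lists. Genes of the spindle, motors and cytokinesis list had TTTGAA in 24 of 31 windows. Genes of the replication fork had it in 2 of 25 and had the E2F-like motif in 13 of 25. A match describes letters in the window and does not show that a factor binds there.

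The summed selection genes ran without a break across the limit, although most kept cells held none of their UMIs. In the wild-type library 3097 kept cells had 0 UMIs of the 6 genes, 434 had 1 to 4 and 32 had 5 to 9, just outside the limit. Just inside it, 12 cells had 10 to 14 and 8 had 15 to 19, and 64 cells had 100 or more. In the knock-in library 5896 cells had 0, 440 had 1 to 4, 10 had 5 to 9, 6 had 10 to 14, 3 had 15 to 19 and 36 had 100 or more. The median member carried 84.5 selection UMIs (range 10 to 579) in wild-type cells, and the median knock-in member 99 (11 to 330). Mki67 reached 640 and 675 CPM (a gene's UMIs per 1000000 UMIs, both summed over the cells) in the wild-type and knock-in members, Top2a 968 and 1057, and Prc1, a cross-linker of spindle microtubules, 875 and 584. Cenpf reached 667 and 555 CPM, Ube2c 809 and 779, and Birc5, the survivin subunit of the chromosomal passenger complex, 441 and 419. Mki67 was detected in 131 of 134 and 68 of 73 members. Each gene stood between 0.549 and 2.80 CPM in the cells outside the rule. Cycle genes that the rule did not read were found in the same cells. Cdk1, the mitotic kinase, was detected in 113 of 134 and 67 of 73 members, and cyclin A2 (Ccna2) in 112 and 62.

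Members were deeper than other cells in both libraries. The median member had 29624 UMIs (wild-type) or 22858 UMIs (knock-in), against 20277 and 11772 in the cells outside the rule. The libraries held 79626104 and 85831737 UMIs in all barcodes. No member shared its barcode sequence with a member of the other library, and 4 barcodes were shared among all kept cells.

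Proliferating cells made up a larger share of the wild-type library than of the knock-in library. Wild-type cells were proliferating at 3.62% (interval 3.05 to 4.28). For knock-in cells the share was 1.14% (0.892 to 1.43). The wild-type share was 3.19-fold the knock-in share, a log2 difference of -1.67 for knock-in over wild-type (-2.10 to -1.25). A fixed UMI limit is reached more easily in deep cells, so every cell was also thinned to 5000 UMIs. With at least 3 selection UMIs required after thinning, the shares were 3.54% and 1.19%, and the same cells without thinning gave 3.71% and 1.19%.

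The dividing cells were of different kinds in the libraries. Of the 134 wild-type members, 102 were fibroblast-like, 18 macrophage or monocyte-like, 4 smooth muscle-like and 2 endothelial-like, each taking the class most frequent among its nearest cells outside the rule. Of the 73 knock-in members, 22 were fibroblast-like, 11 macrophage or monocyte-like, 9 smooth muscle-like and 2 endothelial-like, and 25 fell in an immune cluster that no fixed marker list named (cluster 7). Cluster 7 also held 5 wild-type members. The remaining members lay in 2 further unnamed clusters, 1 wild-type cell in cluster 3 and 2 wild-type and 4 knock-in cells in cluster 9. The cells outside the rule differed as well. Fibroblast-like cells numbered 2745 in the wild-type and 2886 in the other library, and smooth muscle-like cells 312 and 2697.

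Fibroblast-like cells were dividing at 3.58% in the wild-type library (102 of 2847, interval 2.93 to 4.33) and at 0.757% in the knock-in library (22 of 2908, 0.475 to 1.14). That was a 4.74-fold difference (log2 -2.24, -2.98 to -1.57), and after thinning to 5000 UMIs the shares were 3.48% and 0.793%. The wild-type members of the class held UMIs of 10 of 10 fixed fibroblast markers, with a median of 301.5 UMIs of the list in a cell against 6 of the smooth muscle list. The knock-in share was the lower in all 3 fibroblast clusters. In cluster 2, led by Fmod and Ccn5, 53 of 1457 wild-type cells were dividing against 6 of 1421 knock-in cells, 8.62-fold (log2 -3.11, -4.62 to -1.89). In cluster 1, led by Ugdh and Nav3, 4.59% and 1.80% of cells were dividing (log2 -1.35, -2.91 to -0.07). In cluster 0, led by Cpz and Entpd2, the shares were 2.38% and 0.867% (log2 -1.46, -2.75 to -0.25). Clusters 1 and 0 had only 6 and 10 dividing knock-in cells, and in both the intervals of the 2 shares overlapped. Cells were called female when they held Xist UMIs and no UMIs of Y-linked genes, and male in the opposite case. Among female fibroblast-like cells 44 of 901 wild-type cells and 2 of 1040 knock-in cells were dividing (4.88% and 0.192%), and among male ones 48 of 1625 and 12 of 1025 (2.95% and 1.17%). The knock-in share was thus the lower in both sexes, and the number of animals behind each sex is not given.

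In the smaller classes the intervals were wide. Contractile smooth muscle-like cells of the wild-type library were dividing at 1.27% (4 of 316, 0.346 to 3.21), and those of the knock-in library at 0.333% (9 of 2706, 0.152 to 0.630). The interval of their log2 difference, -1.93, ran from -3.77 to 0.22 and included 0. The interval lay below 0 without called doublets (-2.75, knock-in share 0.191%), with limits of 5 or 20 selection UMIs (-2.22 and -2.29) and with classes set by most marker UMIs (-1.59). That last setting raised the shares to 2.62% and 0.870%. Some other settings left 0 inside the interval. Its upper end was 0.22 with selection genes at 0.05% of UMIs or more, and 0.22 with 30 nearest cells. At Leiden resolution 1.0 it was 0.21, and without T or NK cell-like cells 0.08. After thinning to 5000 UMIs the interval lay below 0, with an upper end of -0.08. Macrophage or monocyte-like cells were dividing at 5.64% (18 of 319, 3.38 to 8.77) and 3.85% (11 of 286, 1.94 to 6.78). Their log2 difference of -0.55 (-1.78 to 0.61) was not resolved at this depth, and without called doublets the knock-in share was 2.54%. Endothelial-like cells, the inner lining, gave 2 of 65 and 2 of 55, with intervals that overlapped those of the macrophages in both libraries.

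**Figure D1:**
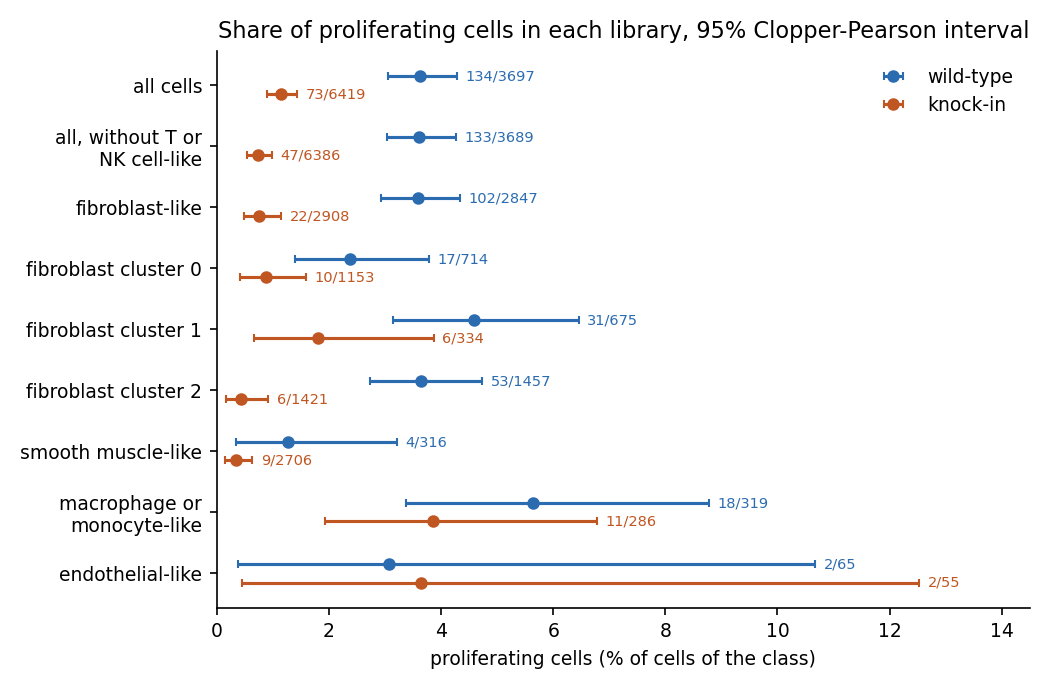
Share of proliferating cells (x axis, percent of the cells of the class) for each class and fibroblast cluster (y axis), wild-type in blue and knock-in in orange; points are shares, bars are 95% Clopper-Pearson intervals and labels give proliferating cells over all cells. The wild-type share is 3.62% and the knock-in share 1.14% over all cells, and the intervals of fibroblast-like cells and of fibroblast cluster 2 do not overlap. Those of fibroblast clusters 0 and 1 and of smooth muscle-like, macrophage or monocyte-like and endothelial-like cells do.

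Many of the knock-in members were T or NK cell-like. A cell was counted as such when Cd3e, Cd3d, Cd3g, Trac, Nkg7, Cd2, Il7r and Lck summed to at least 10 UMIs, a limit set after the data were seen. By that limit 26 of the 73 knock-in members and 1 of the 134 wild-type members were T or NK cell-like, and the knock-in cells carried 10 to 84 UMIs of the list (median 53). Of these 26, 23 lay in cluster 7, 2 among the fibroblast-like and 1 among the smooth muscle-like cells. In the knock-in library 26 of the 33 cells past this limit were dividing (78.8%, 61.1 to 91.0), and in the wild-type library 1 of 8. The 7 wild-type cells that were not dividing passed mainly by Il7r (70 UMIs) and Cd2 (23 UMIs). They held 7 Cd3g UMIs in 1 cell and 0 UMIs of Cd3e, Cd3d, Trac, Nkg7 and Lck. Most of them are thus poorly named by the limit, and the 2 shares do not compare like cells.

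The 26 cells held T cell receptor genes and genes of developing lymphocytes. Cd3g, a chain of the T cell receptor complex, was detected in 26 of 26 cells (381 UMIs), Cd3d in 25 (309 UMIs) and Cd3e in 24 (268 UMIs). The receptor constant gene Trbc2 gave 1440 UMIs in 26 cells, and Themis, a T cell signalling protein, 466 UMIs in 25. Nkg7, a cytotoxic granule gene, was found in 4. The T-lineage factors Bcl11b, Tcf7 and Lef1 were detected in 26, 25 and 26 cells. Genes used by developing lymphocytes were also present, a list looked at after the data were seen: Dntt, the terminal transferase of receptor rearrangement, had 257 UMIs in 19 cells, the recombinase genes Rag1 and Rag2 were in 14 and 8 cells, and Ptcra, the pre-T cell receptor chain, was in 11. The coreceptor genes Cd8a and Cd8b1 were each in 17 cells and Cd4 in 8. The single wild-type T or NK cell-like member held 87 UMIs of Trdc and 46 of Cd163l1, both genes of gamma-delta T cells. Among the 26 knock-in cells Trdc gave 102 UMIs in 18 cells, and Cd163l1 gave 1 UMI. Whether these cells lived in the aortic wall, in blood or in neighbouring tissue taken along at dissection was not tested.

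T cell transcripts were also more frequent outside cells in the knock-in library. In barcodes of 1 to 100 UMIs, which hold free RNA, the 8 T or NK cell genes reached 24.8 CPM (20.6 to 29.6) in the knock-in against 6.10 CPM (3.67 to 9.52) in the wild-type library. In the 102 fibroblast-like wild-type members the list gave 6 UMIs in all, and in the 22 knock-in ones 34 UMIs, which the 2 T or NK cell-like cells among them held (24 and 10). Leaving out the T or NK cell-like cells, 133 of 3689 wild-type cells (3.61%) and 47 of 6386 from the knock-in library (0.736%) were dividing, a log2 difference of -2.29 (-2.80 to -1.80). The fibroblast-like shares became 3.58% and 0.688%.

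**Figure D2:**
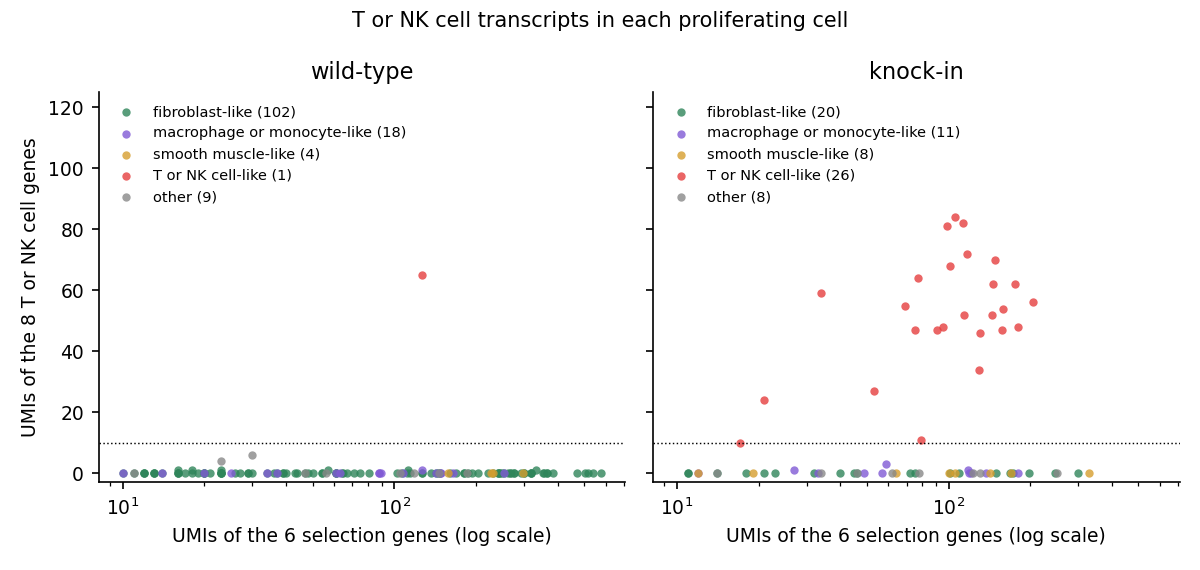
UMIs of the 8 T or NK cell genes (y axis) against UMIs of the 6 selection genes (x axis, log scale) in each proliferating cell of the wild-type (left) and knock-in (right) library, coloured by class; the dotted line marks 10 UMIs. The 26 knock-in cells at or above the line carry 10 to 84 UMIs, and 1 wild-type cell carries 65.

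Members differed among themselves in cycle stage. Transcripts of the replication lists (licensing, fork and nucleotide supply) took a median 0.262% of a wild-type member's UMIs (range 0.0493 to 1.03) and 0.434% of a knock-in member's (0.0506 to 1.21). Transcripts of the mitosis lists took 1.33% (0.102 to 2.88) and 1.24% (0.174 to 3.18). Here the anaphase-promoting complex list was added to the mitosis lists used for promoters, and tubulin genes and Stmn1 were left out. Mitosis transcripts exceeded replication transcripts in 113 of 134 and 67 of 73 members. Outside the rule the same order was seen in 3212 of 3563 cells (wild-type) and 5508 of 6346 cells (knock-in). This order alone therefore does not set members apart, and the part of the rule in it was not tested. Cells outside the rule had 0.0659% and 0.0624% for replication and 0.122% in both libraries for mitosis. Some cells with many replication transcripts lay outside the rule: 77 wild-type and 50 knock-in cells had a replication share and a number of replication UMIs at or above the members' lower quartiles, with a median of 1 selection UMI. The members are therefore not all cells in cycle.

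Stage also varied by class. Among fibroblast-like members the medians were 0.233% for replication and 1.35% for mitosis in the wild-type, and 0.374% and 1.67% among the knock-in cells. Macrophage or monocyte-like members had higher medians for replication, 0.465% and 0.643%, and lower ones for mitosis, 1.15% and 1.22%. Smooth muscle-like members had 2.36% for mitosis in 4 wild-type cells and 1.38% in the knock-in cells. The 26 knock-in T or NK cell-like members had 0.588% and 1.17%. As in most cells outside the rule, mitosis stood above replication in every one of these members. Without them the knock-in medians were 0.365% and 1.38%.

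**Figure D3:**
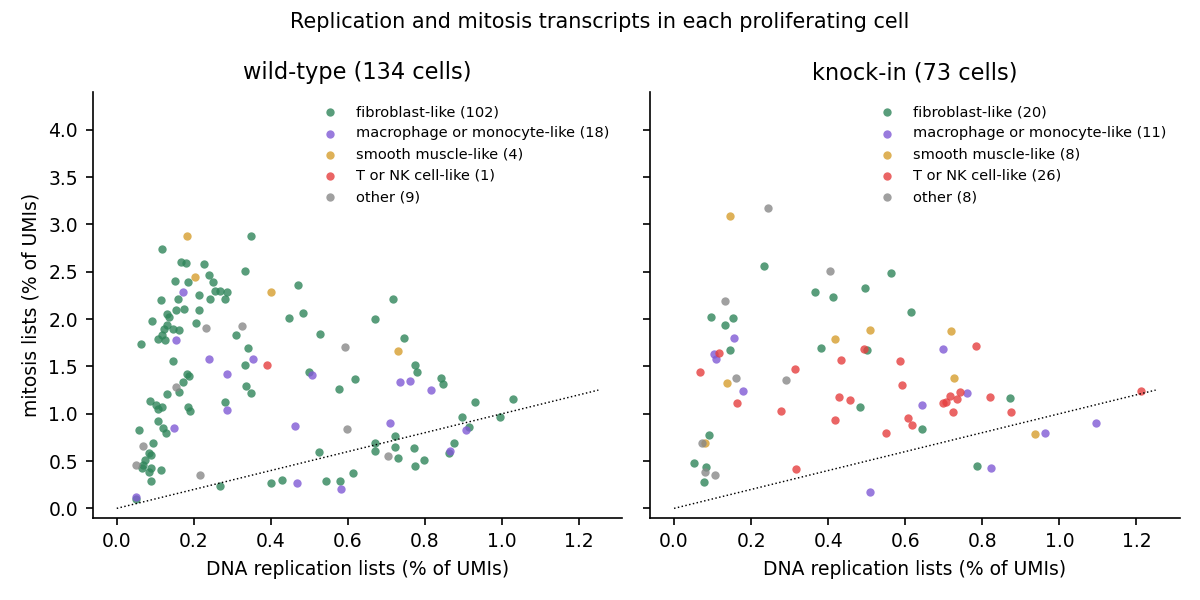
Mitosis-list transcripts (y axis, percent of the cell's UMIs) against replication-list transcripts (x axis, percent of the cell's UMIs) for each of the 134 wild-type and 73 knock-in proliferating cells, coloured by class; the dotted line marks equal shares. Most points, 113 and 67, lie above the line, and a smaller set of cells high for replication lies below it in both libraries. Most cells outside the rule, which are not drawn, would also lie above the line.

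The depth of the fibroblast-like class allowed the members to be described gene by gene against the other cells of the class. Because the contrast follows the rule, these values are a description. A gene was measured when at least 10 UMIs were seen or predicted in the smaller set of cells, and it was counted as higher or lower past 2-fold. In the wild-type library 11.4% of 11831 measured genes were higher in the dividing cells and 4.18% were lower. In the knock-in library 16.3% of 7131 were higher and 6.94% lower. The median log2 ratio of all measured genes was 0.12 and 0.23.

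Replication genes were higher as a group. All 20 measured genes of origin licensing and firing were past 2-fold in the wild-type library (median log2 2.995), as were 11 of 11 in the knock-in library (3.71). Mcm6 stood at 78.9 CPM in dividing and 11.3 CPM in other fibroblast-like wild-type cells, a log2 ratio of 2.81 (2.59 to 3.02), and at 3.70 in the knock-in library. Dbf4, the activator of the Cdc7 kinase at origins, had 101 against 2.64 CPM. Gmnn, which blocks relicensing, had 72.1 against 3.50. At the fork 25 of 26 genes were higher (median 2.20) and 22 of 22 in the knock-in (2.30). The sliding clamp Pcna had 186 against 45.1 CPM (2.04), and the checkpoint mediator Clspn had a ratio of 6.06. Rfc1, the large clamp loader subunit, was short of 2-fold at 0.91.

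Nucleotide and chromatin supply followed. Of the nucleotide genes 9 of 12 and 10 of 12 were higher in the wild-type and knock-in libraries. Thymidine kinase (Tk1) had 118 against 0.965 CPM and the ribonucleotide reductase subunit Rrm2 had 113 against 2.86. Tyms, thymidylate synthase, had 181 against 11.3. The purine and pyrimidine enzymes Impdh2 and Cad had log2 ratios of 0.33 and -0.00. Of the chromatin assembly genes 15 of 17 and 16 of 17 were higher. The variant histone H2afz had 2761 against 224 CPM, Hmgb2 809 against 26.0, and Uhrf1, which recruits the maintenance methyltransferase, a log2 ratio of 5.20.

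The largest list medians belonged to mitosis. Mitotic cyclins and kinases were higher in 23 of 23 wild-type and 21 of 22 knock-in measurements (medians 6.98 and 7.25), and spindle, motor and cytokinesis genes in 33 of 33 in both (7.16 and 7.13). Cdk1 had 355 against 1.83 CPM (log2 7.60) and cyclin B2 (Ccnb2) 270 against 2.34. The spindle checkpoint kinase Bub1 had 227 UMIs in the dividing and 2 in the other wild-type cells (log2 10.99, 9.13 to 14.05). Hmmr, a spindle assembly factor, had 409 against 0.637, and Stmn1, which destabilises microtubules, 1442 against 19.5. Kinetochore genes were higher in 31 of 32 (5.78) and 28 of 29 (6.15), among them the centromeric histone Cenpa at 537 against 3.94 CPM, while Zwint stayed at 0.38 on the log2 scale. Of the condensin and cohesin genes 13 of 17 were higher in the wild-type library, with Smc2 at 5.04 and Esco2, which acetylates cohesin, at 8.84. The cohesin subunit Stag2 was at 0.06 and securin (Pttg1) at -0.37.

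Core subunits of the anaphase-promoting complex mostly lay under 2-fold: 7 of 17 genes of its list were higher, the activator Cdc20 among them (315 against 1.38 CPM) together with the inhibitor Fbxo5 (log2 6.17). DNA repair genes were higher in 20 of 20 and 10 of 10, with Rad51ap1 at 6.41 and Brca1 at 5.54. Nuclear envelope genes were higher in 9 of 9 and 8 of 8, with Lmnb1 at 238 against 16.2 CPM and Lmna at 1059 against 507.

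Cyclins of G1 and S phase split. Ccna2 had 228 against 0.172 CPM, while cyclin D2 (Ccnd2) was lower in dividing cells at 132 against 304 CPM (log2 -1.20, -1.34 to -1.06), and at -1.47 among knock-in cells. Cyclin D1 (Ccnd1) was at -0.65 and -0.64, short of 2-fold. Of the 13 inhibitors and antiproliferative genes 4 were higher, including Cdkn2c (219 against 5.87 CPM), an inhibitor of the D-type cyclin kinases, and Cdkn3 (185 against 0.878), a phosphatase of cyclin-dependent kinases. Cdkn1a was at 0.47 and Btg2 at -0.61.

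Genes of growth and of fibroblast function moved less. Ribosome biogenesis genes and Myc were past 2-fold in 2 of 14 in the wild-type library (median 0.50), with Myc at 0.08 and Nop56 at 1.21. Collagens and elastic fibre genes had 0 of 27 higher and 1 lower (median -0.41). Col1a1, the main chain of type I collagen, had 12242 against 19762 CPM (log2 -0.69), and Col3a1 was at -0.52. The early response genes, which cell dissociation can induce, had 0 of 14 higher and 1 lower (median -0.57). Growth factor receptors had 0 of 12 higher. The imprinted growth genes had 2 higher (Dlk1 at 1.67 and H19 at 1.20) and 1 lower (Meg3, 563 against 1151 CPM).

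Of the 10 BMP targets measured in the wild-type library, 1 was higher (Atoh8, a transcription factor, log2 1.39), with a median of -0.20, and of 6 measured among the knock-in cells 1 was lower, with a median of -0.55. Of the BMP ligands, receptors and antagonists, 1 was higher and 1 lower of 18 in the wild-type cells, and 1 was higher and 4 were lower of 11 in the knock-in cells. Id3, an inhibitor of differentiation, had 804.7 against 1150 CPM (-0.52) in wild-type cells, and its ratio was -1.01 in knock-in cells. Id1 was at 0.45 and -0.39. The ligand Bmp4 was at -0.98 and -1.89 in that order. Mgp itself had 5010 CPM in dividing and 8304 in other fibroblast-like wild-type cells (-0.73, -0.75 to -0.71), and 1986 and 10308 in the knock-in library (-2.38). Its RNA level does not check the altered protein.

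**Figure D4:**
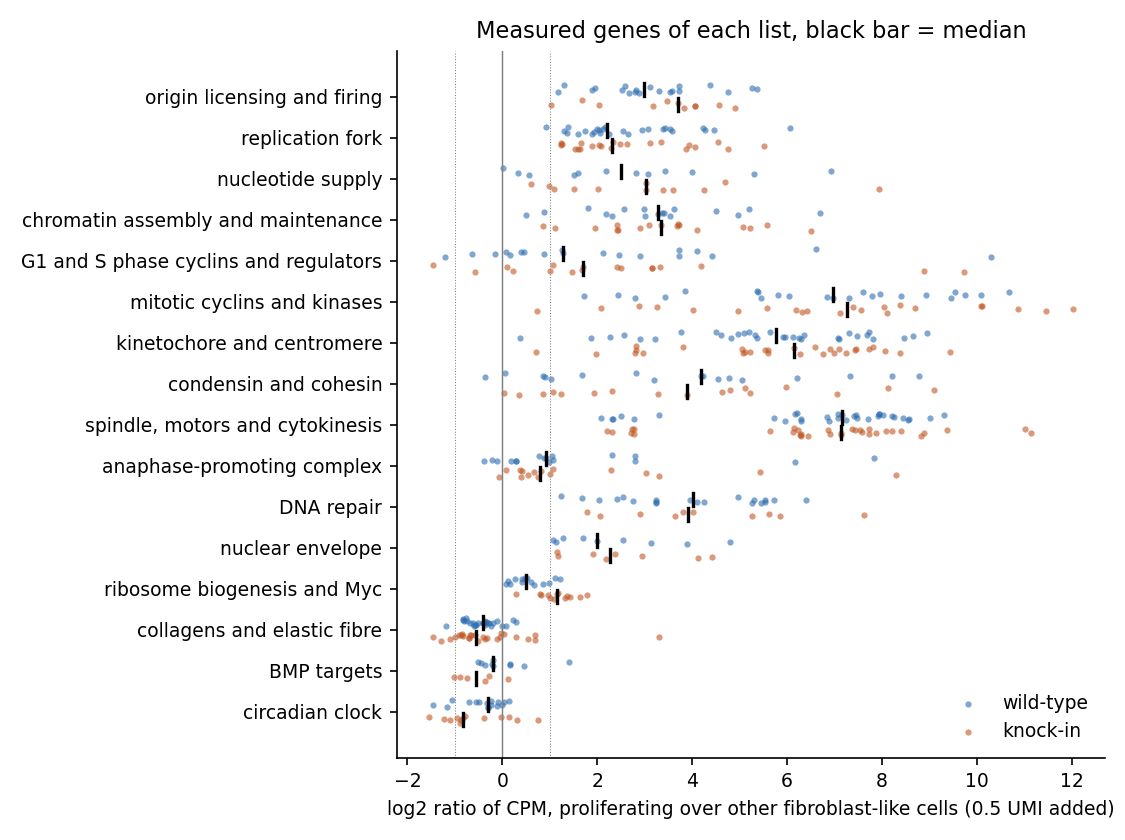
Log2 ratio of CPM in proliferating over other fibroblast-like cells (x axis, 0.5 UMI added to each sum) for each measured gene of the lists (y axis), wild-type in blue and knock-in in orange; black bars are list medians and dotted lines mark 2-fold. Mitotic lists have medians near 7 (6.98 and 7.16 in the wild-type), replication lists between 2.20 and 2.995, and collagens, BMP targets and clock genes below 0.

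Among genes outside the cycle lists, those highest in dividing fibroblast-like cells by the bound of their interval included the mitotic gene Depdc1a (log2 9.82 in the wild-type library), Pimreg (9.56), the linker histone gene Hist1h1b (9.01), Dlgap5 (8.94), a kinetochore-fibre protein, and Gas2l3 (8.27) and Iqgap3 (8.27), which act at the cytoskeleton. Those lowest included Slfn5 (-3.16 for wild-type, -3.19 for knock-in), the complement gene C7 (-2.63 and -1.71), and the small proteoglycans Ogn (189 against 800 CPM, -2.08) and Omd (-2.03 and -3.18). Aldoa, a glycolytic enzyme, was at -1.70 and -1.29, and Pik3ip1, an inhibitor of phosphoinositide 3-kinase, at -2.61 and -1.497.

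Macrophage or monocyte-like members were compared with the other cells of their class in the same way. The rule chose these members too, so their high cycle genes follow from the choice and are a description. Among macrophage or monocyte-like cells 13.2% of 6517 measured genes were higher and 4.51% lower in the dividing wild-type cells, and 15.3% of 4579 higher and 6.03% lower in the knock-in ones. Mitotic cyclins and kinases were past 2-fold in 21 of 21 (median 6.003) and 17 of 18 (5.83), and replication fork genes in 21 of 21 in both (2.21 and 2.88).

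Between genotypes, few cycle genes of dividing fibroblast-like cells differed past 2-fold, while many clock and histone genes did. Of 7199 genes measured between 22 knock-in and 102 wild-type cells, 3.24% were at least 2-fold higher and 4.33% at least 2-fold lower in the knock-in cells. Without the 2 T or NK cell-like cells these were 3.37% and 3.71% of 6973. In the 12 cycle lists 0 measured genes were higher, and 1 of 33 spindle genes and 1 of 11 repair genes were lower, with list medians from -0.32 to 0.28. The 102 wild-type cells had a median of 31112 UMIs and the 22 knock-in cells 20971. They were spread differently over clusters 0, 1 and 2, with 17, 31 and 53 wild-type and 10, 6 and 6 knock-in cells, and the part of cluster in the differences below was not tested. Among cells of 10000 to 40000 UMIs alone, 4.48% of measured genes were higher and 4.87% lower.

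Clock genes differed in opposite directions, in dividing and other cells alike. Of the 15 measured, 8 were higher and 2 lower in the knock-in cells (median 1.07). Dbp, an output factor of the clock, had 17.6 CPM in wild-type against 151 CPM in knock-in cells without the T or NK cell-like ones (log2 3.10, 2.57 to 3.63), and the same ratio was 3.81 in the other fibroblast-like cells. Per2, a repressor of the clock, was at 3.32 (1.88 to 4.84) from 11 knock-in and 8 wild-type UMIs, and at 1.604 in the other cells. The activators Npas2 and Arntl were at -2.23 and -1.75 in dividing cells and -3.90 and -3.68 in other fibroblast-like cells. In those other cells 9 of 17 clock genes were higher and 3 lower, against 5.50% and 3.68% of all 15840 measured genes. The labels give no time of day at which the aortas were taken, and its part in these values was not tested.

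Mgp was lower in the knock-in dividing fibroblast-like cells and not in the other cells of the class. Its level was 5010 CPM in wild-type members and, without the T or NK cell-like cells, 1825 CPM in knock-in members, a log2 ratio of -1.46 (-1.56 to -1.35), while the ratio was 0.31 in the other fibroblast-like cells. Smooth muscle-like members had 6151 and 6282 CPM of Mgp. Collagens and elastic fibre genes had 0 of 27 higher and 2 lower, and Col1a1 was at -0.34.

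Of the single genes that were lowest in the knock-in members, some were detected in many wild-type cells and others rested largely on 1 cell. The protocadherin gene Pcdh9 had 220 UMIs in 38 of 102 wild-type cells and 0 in the knock-in cells, at least 10.1-fold lower without the T or NK cell-like cells. In the other fibroblast-like cells its log2 ratio was -1.41. The adhesion gene Cdh18 had 213 UMIs in 30 cells against 2 (log2 -3.98, -7.03 to -2.11), with a ratio of -0.05 in the other cells, Ppfia2 had 95 UMIs in 33 cells against 0, and Tcf21, a fibroblast lineage factor, had 74 UMIs in 19 cells against 0. For others 1 wild-type cell each gave most UMIs: 75 of 75 for Lcn2, 97 of 107 for Arnt2 and 67 of 85 for Prg4. The same held for Rgs16 (48 of 73) and Col8a1 (95 of 170). Of the highest, Trbc2, Arpp21, Sh2d1a, Cd3g, Tcf7, Coro1a and Skap1 came from the 2 T or NK cell-like cells, Trbc2 for example with 47 UMIs in those 2 cells against 0 in the wild-type. Igfbp2 had 39 UMIs and Cxcl9 14, in 1 cell each.

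Histone genes of the replication-dependent clusters (Hist1h to Hist4h) were higher in the knock-in members, a group of 67 genes singled out after the data were seen. These genes have near-identical copies, so single members are uncertain. Most of their mRNAs end in a stem-loop without a poly(A) tail. In dividing fibroblast-like cells 28 of 37 measured histone genes were at least 2-fold higher in the knock-in library and 0 were lower (median log2 1.61), and 30 of 37 without the T or NK cell-like cells (1.72). In the other fibroblast-like cells 11 of 36 were higher (median 0.32). Summed over the 67 genes, dividing fibroblast-like cells had 2640 CPM in wild-type and, without T or NK cell-like cells, 11425 CPM in knock-in cells, a 4.33-fold difference. The log2 ratio of this sum over all 22 knock-in cells, 2.01, turned to -3.25 among female cells, of which the knock-in library had 2, and was 2.27 among male cells. Outside the rule, other fibroblast-like cells had 274 and 297 CPM. Smooth muscle-like members had 5325 and 14474 CPM (2.72-fold), and macrophage or monocyte-like members 4705 and 6720 (1.43-fold). The knock-in T or NK cell-like members had the highest level, 23531 CPM. Barcodes of 1 to 100 UMIs had 385 and 425 CPM.

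A single gene made up much of this. Hist1h2ap, an H2A gene, had 743 CPM in wild-type against 6623 CPM in knock-in dividing fibroblast-like cells (log2 3.16, 3.08 to 3.23), with UMIs in 61 of 102 and 17 of 22 cells, and its ratio was 2.50 in the other fibroblast-like cells. Among female cells, 2 of them knock-in, the ratio of dividing cells was -4.21. It gave 27.1% of histone UMIs in wild-type and 54.1% in knock-in members without the T or NK cell-like cells. The linker histone genes Hist1h1b, Hist1h1c and Hist1h1e were at 0.22, 0.18 and 0.42.

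Single members differed as well. Histone transcripts took at least 2% of the UMIs in 0 of 133 wild-type and 11 of 47 knock-in members outside the T or NK cell-like cells. Among members whose replication lists took at least 0.4% of UMIs, a line set after the data were seen, the median histone share was 0.452% in 49 wild-type cells (highest 1.603) and 1.81% in 22 knock-in cells (highest 4.22). Among fibroblast-like cells above that line it was 0.651% in 35 and 2.30% in 9 cells. The ranges of the libraries overlapped, since knock-in cells with few histone transcripts were also present.

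**Figure D5:**
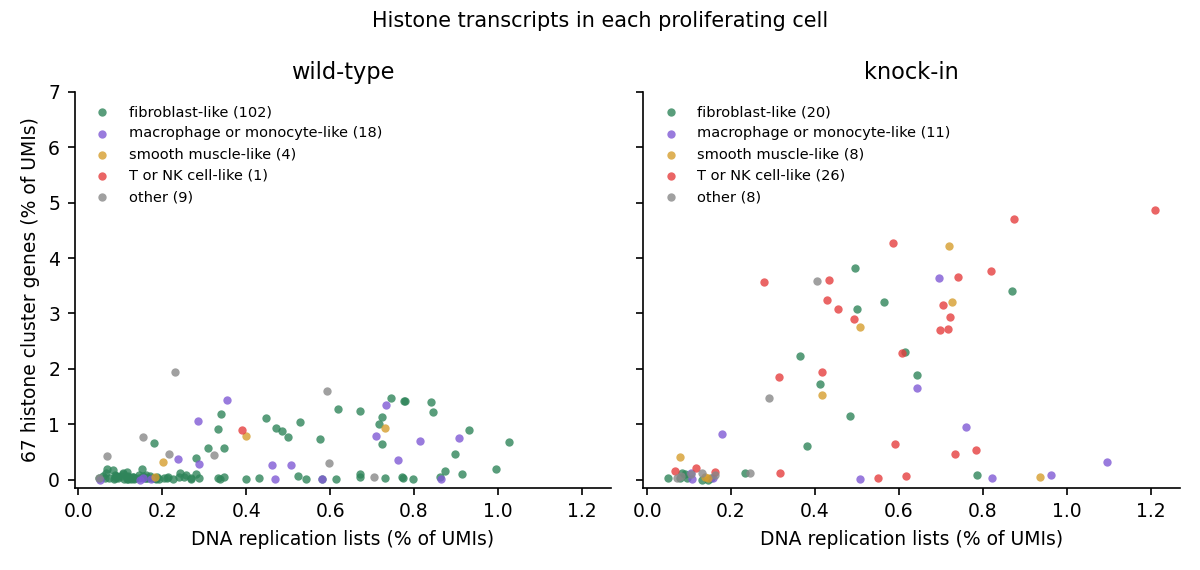
Histone cluster transcripts (y axis, percent of the cell's UMIs over 67 genes) against replication-list transcripts (x axis, percent of UMIs) in each proliferating cell of the wild-type (left) and knock-in (right) library, coloured by class. No wild-type cell reaches 2%, the highest being 1.95%, while 26 of 73 knock-in cells do, 15 of them T or NK cell-like.

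Over all members, whose classes differed between the libraries, more genes were past 2-fold. Of 11446 measured genes 9.93% were at least 2-fold higher and 11.0% lower in the 73 knock-in than in the 134 wild-type members, and without the T or NK cell-like cells 6.33% and 4.48% of 9974. Collagens and elastic fibre genes were lower in 23 of 27 over all members (median -1.42) and in 7 of 27 without the T or NK cell-like cells (-0.75). The imprinted growth genes were lower in 10 of 12 and in 3 of 10. Mitotic cyclins and kinases had 0 of 23 in either direction in both comparisons.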

How the data were processed

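Raw UMI counts for each gene and barcode were deposited by the authors as 1 matrix per library, with all 32285 genes and barcodes not filtered for cells; Cell Ranger 7.1.0 made them per the submitters' processing notes, and the genome build is not given in the sources used here. Kept barcodes, the selection rule and the T or NK cell-like limit are as stated above. The members and gene lists were chosen with earlier results of these data known.

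Classes came from Leiden clustering of the cells outside the rule (10000 counts per cell, log, 2000 variable genes without the cycle lists, 30 components, 15 neighbours, resolution 0.5). Clusters were named from fixed markers, and each member took the commonest class of its 15 nearest cells. Names rebuilt in this way can differ from the study's own. Simulated doublets were scored (0.8% per 1000 cells called) and called cells were kept, then removed as an alternative.

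CPM were made from UMIs summed over the cells of a set, with exact conditional binomial 95% intervals for ratios and Clopper-Pearson intervals for shares. No p-values were computed, since cells of 1 library are not replicates. UMIs of a gene at 0 were set to 3 for a bound. Named genes were the selection genes, up to 4 members of each list with most UMIs and up to 2 with the largest and smallest ratios, and the 12 highest and 12 lowest genes of a comparison by the interval bound nearest 0; the histone, developing-lymphocyte and gamma-delta genes were named after their values were seen. Promoters were matched by symbol to RefSeq windows (GRCm38.p6, 27025 symbols). Scripts used Python 3.11.15, numpy 2.4.6, scipy 1.17.1, pandas 2.3.3, scanpy 1.11.5 and scikit-learn 1.9.0, and were tested on simulated data.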

Additional observations from a re-analysis of the deposited data

Results flagged for a closer look

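The barcodes of 1 to 100 UMIs, which enter no comparison of cells, held T or NK cell transcripts in the knock-in library at 24.8 CPM (123 UMIs, interval 20.6 to 29.6), above the 6.10 CPM of the wild-type library (19 UMIs, 3.67 to 9.52). Trbc2 alone was at 21.8 CPM against 0.321 CPM. Among barcodes of 500 to under 1000 UMIs, 0 of 58 wild-type and 0 of 228 knock-in barcodes had at least 3 UMIs of the list.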

How the results depend on the processing

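No paired analysis was possible because each genotype has 1 library. Of 208 alternative values for the main results, 186 were counted as unchanged and 22 as moved. For shares of cells, unchanged meant inside the counting interval of the main value. Where that interval is wide, this does not test size. The wild-type smooth muscle-like share counted as unchanged at 2.62% with classes set by most marker UMIs (main 1.27%, 0.346 to 3.21). Without called doublets, the knock-in smooth muscle-like share at 0.191% (main 0.333%) and the knock-in macrophage or monocyte-like share at 2.54% (main 3.85%) did too. With a limit of 5 selection UMIs the wild-type share was 4.49%, its fibroblast-like share 4.39% and its median mitosis share 1.08%. Without T or NK cell-like cells the knock-in share was 0.736% (log2 difference -2.29). With classes set by most marker UMIs, 0.870% of knock-in smooth muscle-like cells were dividing. Without a count minimum, genes past 2-fold higher in dividing fibroblast-like cells were 29.7% (wild-type) and 44.4% (knock-in), those between genotypes 20.8% higher and 8.06% lower, and 18.7% were higher over all members. A minimum of 20 UMIs gave 2.02% higher between genotypes in fibroblast-like cells. Female cells alone, with only 2 knock-in fibroblast-like members, gave 28.6% higher and 12.2% lower in the knock-in library, 20.04% higher and 9.34% lower between genotypes, and reversed the knock-in G1 and S list median (-2.57), Hist1h2ap (-4.21) and the summed histone log2 ratio (-3.25). Male cells alone gave 16.9% lower over all members. Without T or NK cell-like cells 6.33% were higher and 4.48% lower over all members. G0s2 reversed to 0.67 in cells of 10000 to 40000 UMIs. TTTGAA was in 19.2% of all promoters when TTCGAA was added, and in 8.01%, with E2F-like motifs in 3.85%, over the last 150 bases of the window. The cause of each shift was not tested.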
